A study of Mus musculus with 4 samples.

Results

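Coreceptor and early double-positive genes are 9 genes of the thymocyte programme at and after the DN3 stage. They are the coreceptor genes Cd4, Cd8a and Cd8b1, the transcription factor genes Zbtb7b and Rora, the signalling gene Themis, and Arpp21, Aqp11 and Cd69. They were picked by gene symbol from the 23285 genes of the per-library table. RNA was sequenced from DN3 thymocytes, the CD4-negative and CD8-negative precursors that carry CD25 and rearrange the T cell receptor beta locus. The cells derived from fetal liver donors labelled Gata3(g/g) hypomorph (2 libraries) or wild type, WT (2 libraries), and were sorted 16 weeks after transfer into irradiated recipients. All 4 samples are labelled C57BL/6, and both genotypes share the transfer and the irradiation. The nature of the g allele, the age of the mice, pooling of animals and any gate against residual recipient cells were not given in the sources used here. The labels do not state whether replicate libraries are from different mice, and p-values therefore concern the spread between these libraries only, which may be technical.

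Replicates 1 of both genotypes were sequenced in one run (run 1 here) and replicates 2 in another (run 2), so each Gata3(g/g) library has a WT partner in its run. The libraries held between 14331705 and 26901913 fragments. The targeted gene, Gata3, stood at 120 and 96.1 FPKM under the label Gata3(g/g), against 62.4 and 58.5 FPKM in WT, so its RNA was higher under the hypomorph label, and every direction given for Gata3(g/g) rests on that label. The 12 DN3 markers summed to 3512 and 3678 FPKM in Gata3(g/g) and 3147 and 3323 FPKM in WT. With the run as a block, 3 of the 12 (Il2ra, Dtx1 and Il7r) were called higher and 0 lower (3.9% and 2.99% of all tested genes were). The median log2 fold change of the 12 was −0.01, beside 0.01 over all tested genes. Erythroid marker RNA was high in run 2, with sums of 2.34 and 593 FPKM in Gata3(g/g) and 1.36 and 464 FPKM in WT. Of 7 tested, 1 (Hba-a2) was called higher (3.9% of all tested genes were). Hba-a2 had 0 fragments in both run 1 libraries, so its call rests on the run 2 pair.

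CD4 and CD8 are the coreceptors that bind MHC class II and class I beside the T cell receptor and bring the kinase LCK to it. Thymocytes lack both at the DN3 stage. After the pre-T cell receptor has signalled they pass through an immature stage, in mice usually with CD8 before CD4, and then carry both as double-positive cells. Genes such as Themis, Arpp21, Aqp11 and Rora belong to the expression programme around that transition, and Zbtb7b, which encodes ThPOK, is switched on later in cells that choose the CD4 lineage.

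Both CD8 chain genes were higher in Gata3(g/g) while Cd4 showed no detectable difference. Themis was higher as well and Aqp11 was lower. Levels here are FPKM, fragments scaled to transcript length and library depth. In bulk RNA, a change in the number of cells that carry a transcript and a change in RNA per cell cannot be told apart. Of the 9 genes, 6 reached 1 FPKM on average and were tested among 10224 genes. With the sequencing run as a block, edgeR's quasi-likelihood test called 4 of these 6, with Cd8b1, Cd8a and Themis higher and Aqp11 lower, beside 6.9% of all tested genes (3.9% called higher and 2.99% lower). Cd8a reached the filter only through its Gata3(g/g) values, both WT values being below 1 FPKM, so its place in these counts is no support for a difference. Without the block the same test called 0 of the 6, beside 0% of all genes, and 4 of the 6 had an unadjusted p under 0.05 (3.84% of all genes did). DESeq2 called 3 of the 6 with the block (4.08% of all genes), all but Cd8a among those 4, and 0 without it (0.861%), where 4 of the 6 had an unadjusted p under 0.05 (4.06% of all genes did). By limma 0 were called with the block (0.176% of all genes) and 0 without it (0.0489%), and at an unadjusted p under 0.05 limma had 5 with the block (15.1% of all genes) and 4 without (3.82%). The calls therefore rest on the comparison within runs, which leaves 1 residual degree of freedom and leans on the spread pooled over genes.

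**Figure D1:**
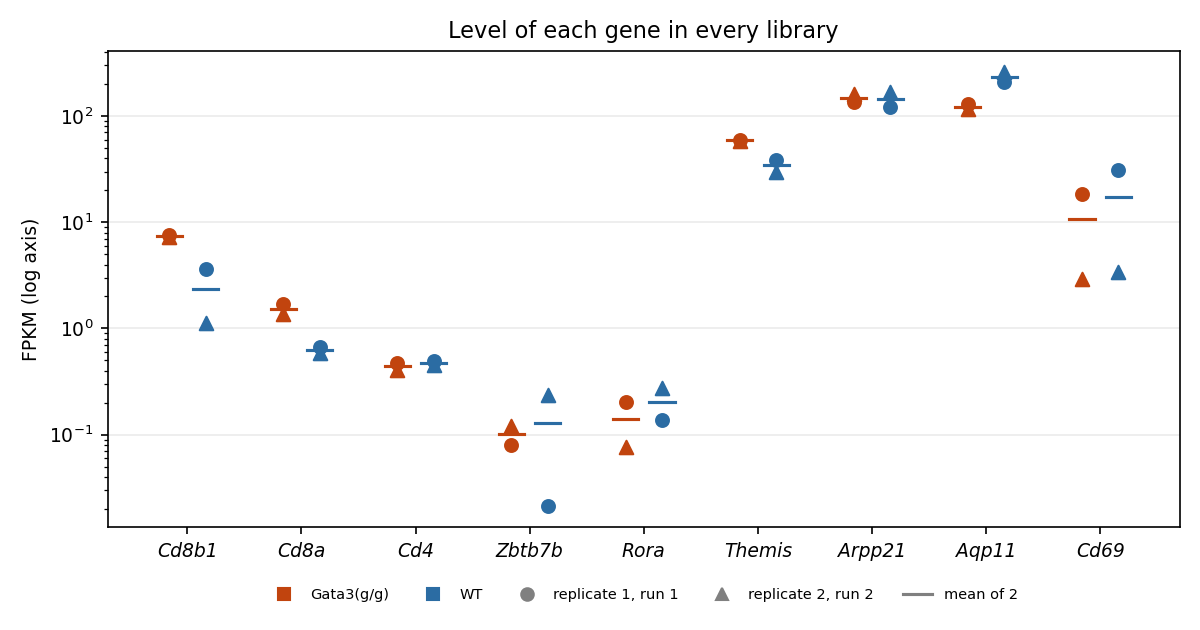
FPKM on a log axis of the 9 genes in each library, Gata3(g/g) left of WT, with circles for run 1, triangles for run 2 and a bar at the mean of 2. Cd8b1, Cd8a and Themis lie higher in both Gata3(g/g) libraries and Aqp11 lower, while Cd4 lies between 0.406 and 0.492 FPKM in all 4 libraries and Cd69 separates by run.

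Cd8b1 encodes the CD8 beta chain, which pairs with the alpha chain in conventional thymocytes. It measured 7.61 and 7.22 FPKM in Gata3(g/g) (503 and 317 fragments), against 3.63 and 1.11 FPKM in WT (180 and 38 fragments). The 2 Gata3(g/g) values were close to each other and both lay above the WT values, of which replicate 2 was the lower. Means were 7.42 ± 0.271 FPKM in Gata3(g/g) and 2.37 ± 1.78 FPKM in WT (SD, n = 2 each). The log2 fold change by run-blocked edgeR was 1.77 ± 0.302 (SE, 95% interval 1.13 to 2.41, adjusted p = 0.00135), and without the block it was 1.64 (unadjusted p = 0.0338, adjusted p = 0.9997). The ratio of depth-scaled counts (CPM), Gata3(g/g) over WT, was 2.20 in run 1 (95% exact counting interval 1.85 to 2.62) and 6.63 in run 2 (4.73 to 9.54). The intervals of the runs did not overlap, although they cover counting error only. With 1 library of each genotype per run, a difference between the runs in the genotype effect could not be tested. WT replicate 2 set much of the size: without it the log2 fold change was 1.05, and without WT replicate 1 it was 2.71, both without the block and neither past the test.

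Cd8a encodes the CD8 alpha chain, which can also form a homodimer on some innate-like T cells and dendritic cells. It measured 1.71 and 1.37 FPKM in Gata3(g/g) (267 and 143 fragments) and 0.674 and 0.592 FPKM in WT (79 and 48 fragments). Both Gata3(g/g) values were at least 2 times both WT values and the replicates of each genotype lay close together. Its log2 fold change was 1.28 ± 0.286 (SE, 95% interval 0.68 to 1.89, adjusted p = 0.0110 by run-blocked edgeR, and adjusted p = 0.0574 by DESeq2 with the block). Without the block edgeR gave the same 1.28 with an unadjusted p of 0.0110 and an adjusted p of 0.860. In the fit with no filter on low values, which does not depend on Cd8a reaching 1 FPKM, the adjusted p was 9.65e-05 with the block and 0.719 without it. The CPM ratio was 2.66 in run 1 (counting interval 2.06 to 3.46) and 2.37 in run 2 (1.70 to 3.36), so unlike Cd8b1 its 2 runs gave overlapping intervals.

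The proportion of the CD8 chain genes was compared within libraries. The Cd8b1 level was 4.44 and 5.29 times the Cd8a level in Gata3(g/g) and 5.39 and 1.88 times in WT, on the FPKM scale. WT replicate 2 had the lowest ratio of the 4 libraries. The genes are neighbours on chromosome 6, Cd8b1 from 71322812 to 71337451 and Cd8a from 71373427 to 71379171 in mm10, with 35975 bases between them in the deposited coordinates. No other gene of the GENCODE M21 annotation overlaps either of them.

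Cd4 encodes the class II coreceptor. It measured 0.473 and 0.406 FPKM in Gata3(g/g) (73 and 42 fragments) and 0.492 and 0.449 FPKM in WT (57 and 36 fragments). The ranges of the genotypes overlapped and all 4 values lay within a narrow band below the filter of 1 FPKM. In a fit of all 21355 genes with any fragment (4.63% called), run-blocked edgeR gave a log2 fold change of −0.10 ± 0.403 (SE, 95% interval −0.89 to 0.69, adjusted p = 0.999). A 2-fold change in either direction lies outside that interval, but inside the wider one without the block (−1.35 to 1.15). The CPM ratios were 1.01 (counting interval 0.703 to 1.45) in run 1 and 0.927 (0.580 to 1.49) in run 2. The Cd8a level was 3.62 and 3.36 times the Cd4 level in Gata3(g/g), against 1.37 and 1.32 times in WT. The same unequal level held for the beta chain, with Cd8b1 at 16.1 and 17.8 times Cd4 in Gata3(g/g) and 7.39 and 2.48 times in WT.

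Zbtb7b encodes ThPOK, the factor of the CD4 lineage, and Rora encodes the nuclear receptor ROR alpha. Both were near the detection floor, where 3 fragments correspond to between 0.0162 and 0.0311 FPKM for Zbtb7b and between 0.0384 and 0.0743 FPKM for Rora. Zbtb7b measured 0.0809 and 0.120 FPKM in Gata3(g/g) (15 and 15 fragments) and 0.0215 and 0.239 FPKM in WT (3 and 23 fragments). Its CPM ratio was 3.93 in run 1 (counting interval 1.11 to 21.2) and 0.518 in run 2 (0.251 to 1.04), so the runs pointed in opposite directions. Rora measured 0.205 and 0.0770 FPKM in Gata3(g/g) (16 and 4 fragments) and 0.137 and 0.273 FPKM in WT (8 and 11 fragments), with CPM ratios of 1.57 (0.635 to 4.25) and 0.289 (0.0671 to 0.975). A genotype difference was not detectable for either gene at this depth. In the fit without a filter the edgeR log2 fold changes with the block were 0.27 ± 1.12 for Zbtb7b and −0.54 ± 1.40 for Rora (SE, adjusted p = 0.999 for both). Zbtb7b shares its deposited locus with the antisense gene Gm15417, and Rora overlaps the antisense gene Gm15511 in GENCODE M21. Whether counting used the strand is not given in the sources used here, so reads of these pairs cannot be told apart.

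Themis encodes a T cell signalling protein that binds GRB2 and the phosphatase SHP-1 and is needed for positive selection. It measured 59.9 and 57.9 FPKM in Gata3(g/g) (12032 and 7807 fragments) and 38.8 and 29.8 FPKM in WT (5851 and 3113 fragments). The genotypes did not overlap, and the Gata3(g/g) libraries were the closer pair. Its log2 fold change was 0.80 ± 0.131 (SE, 95% interval 0.52 to 1.07, adjusted p = 0.000964 by run-blocked edgeR), with differences of 0.69 in run 1 and 0.99 in run 2 on the log2 CPM scale. In the model without the block the unadjusted p was 0.0185 and the adjusted p was 0.9997 by edgeR. Themis overlaps opposite-strand pseudogenes, 4930519F09Rik and Gm47834, in GENCODE M21, so with the strand setting unknown their reads cannot be told apart from its own. Themis combined a higher expression level than either CD8 chain gene with a smaller fold change as estimated by run-blocked edgeR. Its 95% interval overlapped that of Cd8a (0.68 to 1.89), and a difference in fold change between the genes was not tested.

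Aqp11 encodes an intracellular aquaporin and had the highest mean of the 9 genes over the 4 libraries, although Arpp21 was higher in both Gata3(g/g) libraries. It measured 129 and 115 FPKM in Gata3(g/g) (7915 and 4671 fragments), against 207 and 257 FPKM in WT (9487 and 8106 fragments). Both Gata3(g/g) values lay below both WT values. Its log2 fold change was −0.91 ± 0.147 (SE, 95% interval −1.22 to −0.60, adjusted p = 0.000746 by run-blocked edgeR), with −0.61 in run 1 and −1.13 in run 2 on the log2 CPM scale. In the model without the block it was −0.92 (unadjusted p = 0.0117, adjusted p = 0.879 by edgeR).

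The 250 bases before the RefSeq start site (build GRCm38.p6) are shown for the called genes that have an entry, since these promoters precede RNA that differed between the genotypes. Capitals mark matches to 4 motifs searched on both strands: AGATAA for the zinc-finger family of Gata3, then TGTGGT for the RUNX family, then CTTTGA for the family of Lef1, and finally the E-box CANNTG, which reads the same on both strands.
Cd8a promoter, chr6:71373177-71373426, plus strand: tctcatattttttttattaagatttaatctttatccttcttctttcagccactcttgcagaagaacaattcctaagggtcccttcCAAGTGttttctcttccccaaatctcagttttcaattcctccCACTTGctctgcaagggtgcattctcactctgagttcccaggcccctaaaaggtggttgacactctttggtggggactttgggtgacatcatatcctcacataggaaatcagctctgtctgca
Themis promoter, chr10:28668110-28668359, plus strand: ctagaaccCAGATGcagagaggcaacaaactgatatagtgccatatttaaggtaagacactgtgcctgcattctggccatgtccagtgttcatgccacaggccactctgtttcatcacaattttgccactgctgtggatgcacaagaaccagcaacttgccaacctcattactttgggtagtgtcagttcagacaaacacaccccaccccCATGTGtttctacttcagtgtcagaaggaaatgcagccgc
Aqp11 promoter, chr7:97738248-97738497, minus strand: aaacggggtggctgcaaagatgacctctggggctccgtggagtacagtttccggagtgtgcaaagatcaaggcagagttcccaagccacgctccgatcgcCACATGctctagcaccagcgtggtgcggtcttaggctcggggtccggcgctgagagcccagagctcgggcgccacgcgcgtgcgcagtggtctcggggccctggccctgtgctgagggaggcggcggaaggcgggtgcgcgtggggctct
The E-box letters occur 2 times in the Cd8a window, at −165 and −123 from the start site, 2 times in the Themis window, at −242 and −40, and 1 time in the Aqp11 window, at −150. They occur in 66.2% of all 32851 windows of this length. The letters of the Gata3-family motif are in 9.99% of all windows, those of the RUNX motif in 14% and those of the Lef1-family motif in 13.8%, and none of the 3 motifs is in the windows shown. The matches describe letters only, and Themis has 2 entries in the RefSeq table, of which the first is shown.

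Arpp21 encodes a cyclic AMP-regulated phosphoprotein with RNA-binding domains that is transcribed in thymocytes and hosts the microRNA gene Mir128-2. It measured 135 and 162 FPKM in Gata3(g/g) and 121 and 169 FPKM in WT, from 13720 to 21560 fragments, with overlapping genotypes. Its log2 fold change was 0.06 ± 0.162 (SE, 95% interval −0.29 to 0.40, adjusted p = 0.887 by run-blocked edgeR). The Arpp21 level was 1.05 and 1.41 times the Aqp11 level in Gata3(g/g) and 0.587 and 0.659 times in WT, so the order of these most abundant genes of the set differed between the genotypes. Arpp21 shares its deposited locus with 2900079G21Rik, a noncoding gene on the opposite strand at 16.2 and 23.6 FPKM in Gata3(g/g) and 15.9 and 24.6 FPKM in WT.

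Cd69 encodes an early activation antigen of the C-type lectin family that also holds back egress through the receptor S1PR1. It measured 18.4 and 2.90 FPKM in Gata3(g/g) (1414 and 148 fragments) and 31.3 and 3.38 FPKM in WT (1805 and 134 fragments). The runs, not the genotypes, separated the values: run 1 exceeded run 2 by 2.66 on the log2 CPM scale in Gata3(g/g) and by 3.18 in WT. Within each run the Gata3(g/g) library was the lower one, with a difference of −0.70 in run 1 and −0.19 in run 2. With the block the log2 fold change was −0.54 ± 0.160 (SE, adjusted p = 0.0504 by edgeR), just outside the threshold of 0.05, and with no filter on low values it was −0.55 (adjusted p = 0.0386). Without the block its standard error was 1.22.

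**Figure D2:**
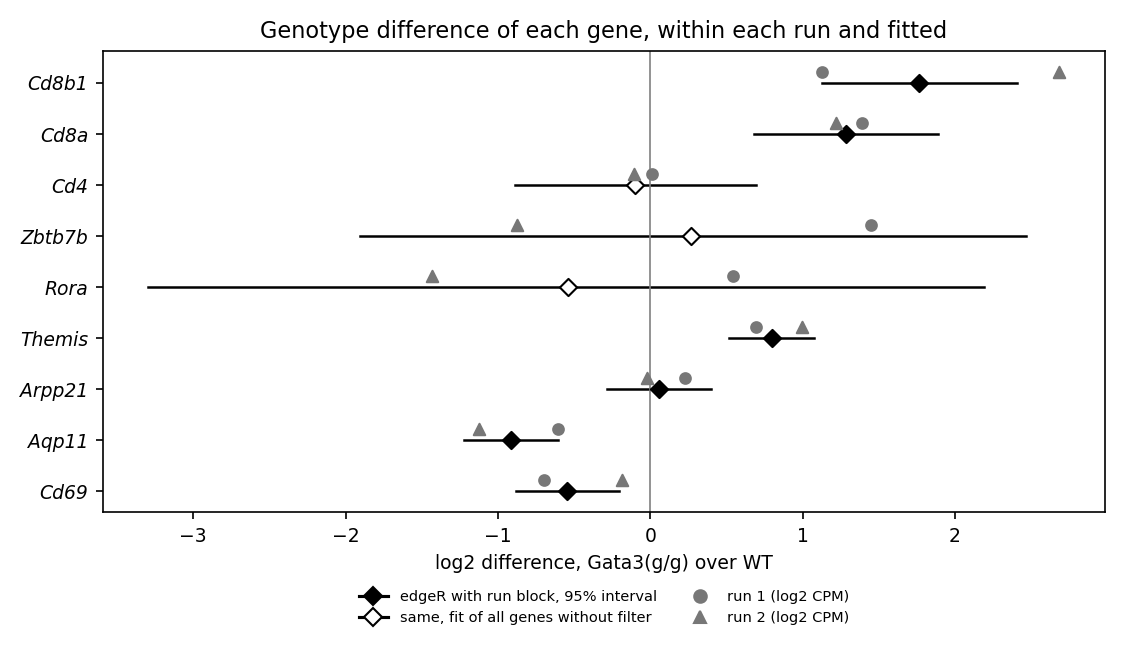
Log2 difference of Gata3(g/g) over WT for the 9 genes: diamonds with 95% intervals from edgeR with the run as a block (open where taken from the fit without a filter), circles for run 1 and triangles for run 2 on the log2 CPM scale. Cd8b1, Cd8a and Themis lie above 0 in both runs and Aqp11 below 0 in both, while Zbtb7b and Rora have opposite signs in the runs.

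Over the 4 libraries the mean levels ran from Aqp11 (177 FPKM) and Arpp21 (147 FPKM) through Themis (46.6 FPKM), Cd69 (14 FPKM), Cd8b1 (4.89 FPKM), Cd8a (1.09 FPKM) and Cd4 (0.455 FPKM) to Rora (0.173 FPKM) and Zbtb7b (0.115 FPKM). Neighbours in this order whose ranges over the libraries did not overlap were Arpp21 and Themis, Cd8a and Cd4, and Cd4 and Rora. Every other neighbouring pair overlapped. Aqp11 and Arpp21 stood at ranks 300 and 352 from the top of all measured genes by mean FPKM, and Cd8a at rank 10110. The set thus spans genes that are abundant in DN3 cells and genes that are barely transcribed there.

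**Figure D3:**
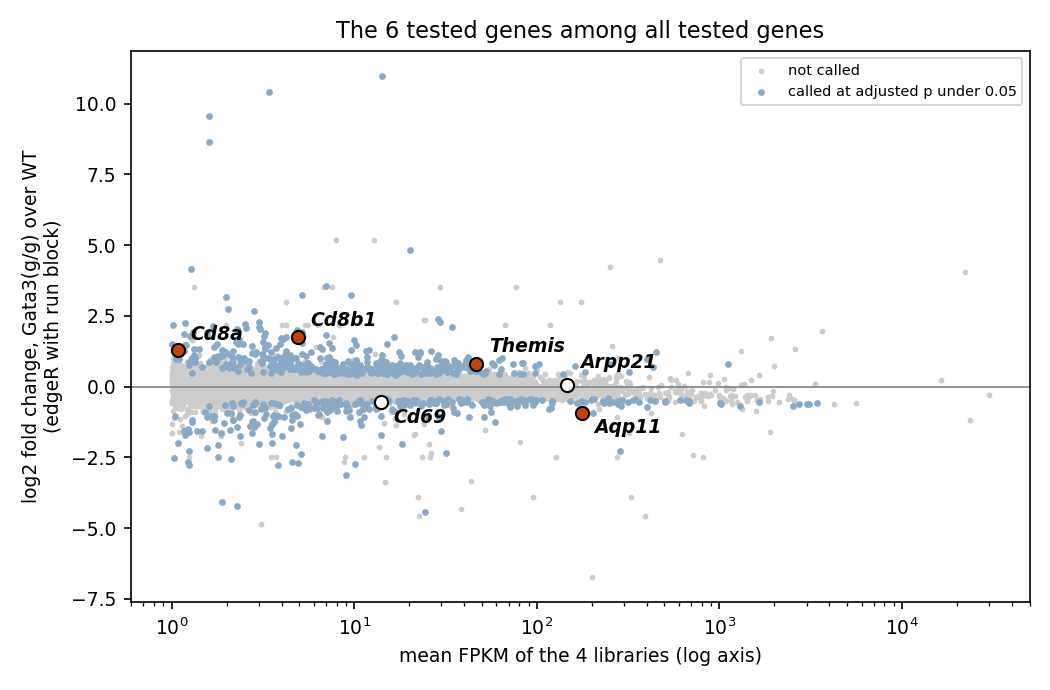
Mean FPKM (log axis) against the log2 fold change of Gata3(g/g) over WT by run-blocked edgeR for 10224 genes, with the 6 tested genes of the set outlined and filled where called. By fold change from the highest, Cd8b1 ranked 62 and Cd8a 105, and Aqp11 ranked 156 from the lowest. Cd8a is among the ranked genes only through its Gata3(g/g) values, so its rank is no support for a difference.

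Ranges of the genotypes did not overlap on the FPKM scale for 4 of the 6 tested genes, beside 29% of all tested genes. The 4 are the genes called with the block, and they include Cd8a, which reached the filter only through Gata3(g/g). In the authors' deposited table, which used the same 4 libraries and called 4.1% of its tested genes, the q-value was 0.00117 for Cd8b1, 0.0476 for Cd8a, 0.00349 for Themis, 0.000264 for Aqp11, 0.0520 for Cd69 and 0.942 for Arpp21. Cd4, Zbtb7b and Rora were marked there as not tested.

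Neighbouring genes were compared with the members. On either side of the CD8 pair, the nearest expressed genes (1 FPKM or more on average) were Krcc1, 37492 bases from Cd8b1, and Rmnd5a, 9462 bases from Cd8a. Krcc1 measured 22.1 and 27.3 FPKM in Gata3(g/g) and 19.6 and 24.2 FPKM in WT (log2 fold change 0.18 ± 0.135, SE, adjusted p = 0.486 by run-blocked edgeR). Rmnd5a measured 12.5 and 15.0 FPKM in Gata3(g/g) against 12.9 and 13.4 FPKM in WT (0.07 ± 0.123, SE, adjusted p = 0.822). Beside Aqp11, Clns1a lies 5585 bases away and Pak1 104691 bases away. Their log2 fold changes were −0.21 ± 0.121 and −0.21 ± 0.148 (SE, adjusted p = 0.349 and 0.468 by run-blocked edgeR). The nearest expressed genes to Themis were far off, Arhgap18 at 1749746 bases and Rnf146 at 430416 bases. Arhgap18 (0.27 ± 0.136) and Rnf146 (0.02 ± 0.133, SE) did not pass. Beside Cd4, the CD4-related inhibitory receptor gene Lag3 measured 1.80 and 0.943 FPKM in Gata3(g/g) and 1.04 and 0.558 FPKM in WT (0.78 ± 0.342, SE, adjusted p = 0.202). Cdca3, on the other side of Cd4, had 0.04 ± 0.138.

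**Figure D4:**
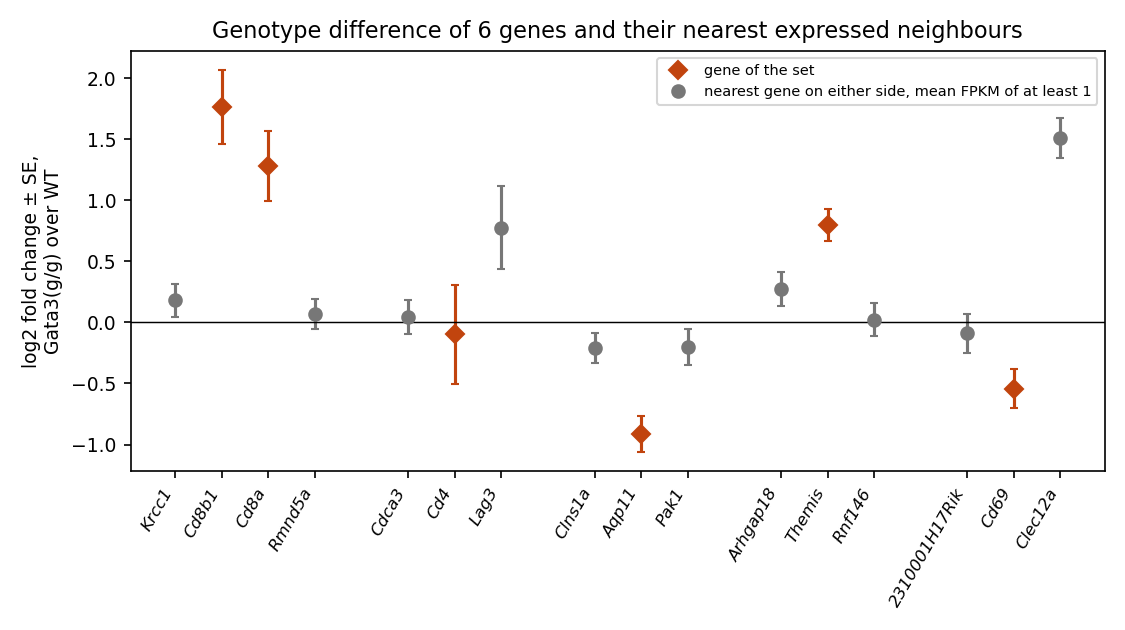
Log2 fold change ± SE of Gata3(g/g) over WT by run-blocked edgeR for 6 genes of the set (diamonds) and the nearest gene on either side that averages 1 FPKM or more (circles); Cd4 comes from the fit without a filter. Cd8b1 and Cd8a (1.77 and 1.28) stand above their flanking genes Krcc1 and Rmnd5a (0.18 and 0.07), and Clec12a, beside Cd69, stands at 1.51.

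Patterns most like those of the coreceptor genes were sought among all tested genes, by the distance between mean-centred log2 CPM values over the 4 libraries. Nearest to Cd8a were Khdc1a (distance 0.139), Mira (0.170) and Txk (0.185), the last a TEC-family kinase gene at 1.94 and 1.85 FPKM in Gata3(g/g) and 0.786 and 0.718 FPKM in WT. Nearest to Cd8b1 were Tnfrsf13b (0.503), the kinase gene Blk (0.590) and the phosphodiesterase gene Pde2a (0.647), each of them lowest in WT replicate 2. Nearest to Cd4 were Ada (0.0218), Plcb3 (0.0229) and Cul5 (0.0277). Txk and Pde2a (0.897 and 0.414 FPKM in WT) reached the filter of 1 FPKM only through their Gata3(g/g) values. Their place among the nearest genes is therefore no support for a difference. A likeness over 4 libraries is a description of shape.

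Of 25 listed regulators of the coreceptor genes, all tested, 1 was called higher (Gata3) and 2 lower with the block (3.9% and 2.99% of all tested genes), with a median log2 fold change of 0.02 beside 0.01 over all tested genes. Lef1, which encodes a partner of beta-catenin and of TCF-1 that acts on the coreceptor genes, was lower at 28.4 and 26.7 FPKM in Gata3(g/g), against 53.8 and 61.4 FPKM in WT (log2 difference −1.06 ± 0.127, SE, adjusted p = 4.76e-05 by run-blocked edgeR). Satb1, a chromatin organizer gene, measured 31.4 and 29.7 FPKM in Gata3(g/g) and 54.2 and 38.04 FPKM in WT (−0.57 ± 0.146, SE, adjusted p = 0.0257). The RUNX genes, whose products silence Cd4 and act on the Cd8 enhancers, did not pass: Runx1 measured 69.1 and 79.3 FPKM in Gata3(g/g) and 60.7 and 79.2 FPKM in WT. Runx3 measured 8.81 and 8.31 FPKM in Gata3(g/g) and 8.998 and 11.7 FPKM in WT (adjusted p = 0.352 by run-blocked edgeR). Patz1, which encodes the CD8 enhancer-binding repressor MAZR, had 31.4 and 28.5 FPKM in Gata3(g/g) against 23.3 and 19.6 FPKM in WT (0.39 ± 0.123, SE, adjusted p = 0.0723).

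Of 22 listed further genes of the double-positive stage, 21 were found in the files and tested, of which 3 were called higher (3.9% of all tested genes), 0 lower (2.99%) and 18 not called, with a median of 0.07. Slamf6, which encodes a SLAM-family receptor, measured 33.7 and 29.7 FPKM in Gata3(g/g) and 17.9 and 10.6 FPKM in WT (1.196 ± 0.147, SE, adjusted p = 5.69e-05 by run-blocked edgeR). Plxnd1, which encodes a semaphorin receptor of double-positive cells, measured 2.73 and 3.55 FPKM in Gata3(g/g) and 1.49 and 1.83 FPKM in WT (0.92 ± 0.148, SE, adjusted p = 0.000795). Cd6, a scavenger-receptor family gene, had 0.52 ± 0.140 (SE, adjusted p = 0.0346).

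Of 15 listed signalling partners of the coreceptors and of THEMIS, 14 were found and tested, with 1 called and a median of 0.00, a share near the 6.9% of all tested genes. That gene was Ptpn6, which encodes SHP-1, at 50.2 and 37.8 FPKM in Gata3(g/g) and 37.1 and 22.7 FPKM in WT (0.59 ± 0.127, SE, adjusted p = 0.00836 by run-blocked edgeR). Lck, the kinase that CD4 and CD8 carry, measured 294 and 215 FPKM in Gata3(g/g) and 245 and 175 FPKM in WT and did not pass (adjusted p = 0.333). Of 16 listed relatives of the members, 8 were tested and 1 was called (6.9% of all tested genes were), the C-type lectin gene Clec2d, which was higher by 0.78 ± 0.142 (SE, adjusted p = 0.00235). Aquaporin relatives were scarce: Aqp1, Aqp3, Aqp8 and Aqp9 each stayed below 1 FPKM in all 4 libraries. Without the block 0 genes of these 4 lists were called by edgeR.

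**Figure D5:**
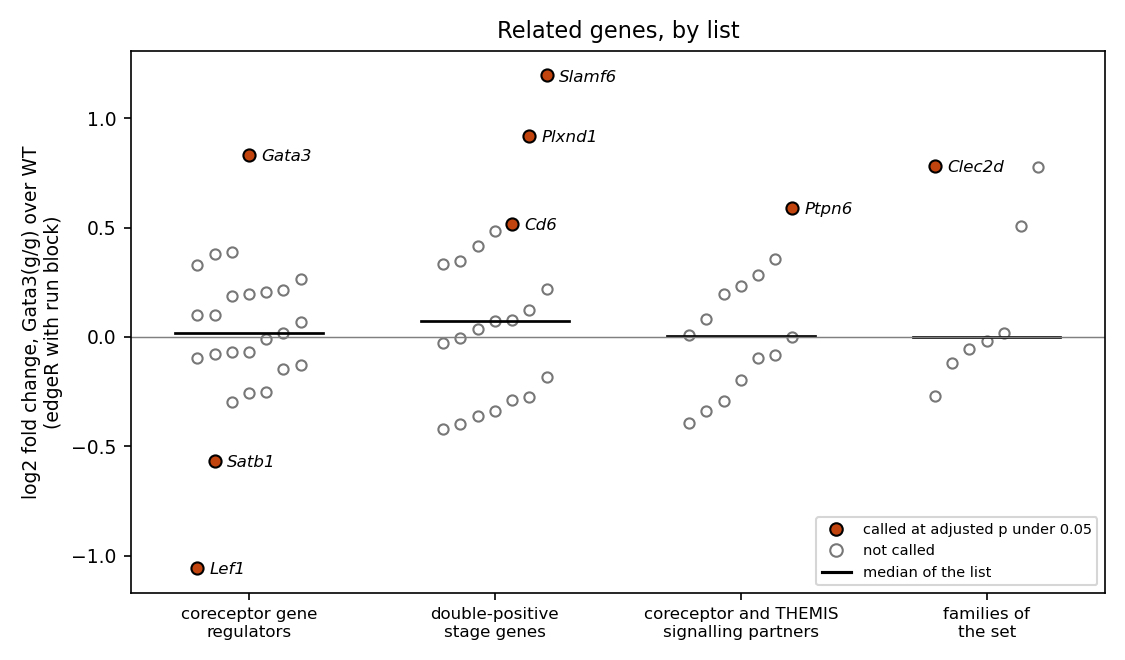
Log2 fold change of Gata3(g/g) over WT by run-blocked edgeR for the tested genes of 4 lists, 1 circle per gene, filled where called, with a bar at each list's median. The medians lie near 0, and the called genes are Gata3, Satb1 and Lef1 among regulators, Slamf6, Plxnd1 and Cd6 among double-positive genes, Ptpn6 among partners and Clec2d among relatives.

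Markers of other cells that carry CD8, or that a DN3 gate could hold, were measured beside the CD8 genes. The 10 dendritic markers summed to 83.5 and 76.8 FPKM in Gata3(g/g) and 93.6 and 100 FPKM in WT, nearly all of it Bst2, and Xcr1 and Clec9a were at most 0.0921 FPKM in any library. Of the 8 mature alpha-beta T cell markers, 6 stayed below 1 FPKM in all libraries. The 7 gamma-delta T cell markers found in the files summed to 171 and 112 FPKM in Gata3(g/g) and 92.1 and 77.8 FPKM in WT, with 4 called higher (Cd163l1, 5830411N06Rik, Maf and Blk) and 2 lower (Sox13 and Il17rb), where 3.9% and 2.99% of all tested genes were. Maf measured 3.83 and 4.46 FPKM in Gata3(g/g) and 0.800 and 0.988 FPKM in WT. It reached the filter only through Gata3(g/g), so its place in this count is no support for a difference. The NK and innate lymphoid markers summed to 96.9 and 76.2 FPKM in Gata3(g/g) and 43.7 and 41.6 FPKM in WT, of which Nkg7 made up nearly all, the other 7 markers being below 1 FPKM. Myeloid markers summed to 22.3 and 66.1 FPKM in Gata3(g/g) and 14.3 and 56.3 FPKM in WT. Of the 4 tested, 1 was called higher, Lyz2 (3.9% of all tested genes were called higher). Lyz2 measured 18.7 and 13.6 FPKM in Gata3(g/g) and 9.93 and 4.203 FPKM in WT (1.27 ± 0.198, SE, adjusted p = 0.000610 by run-blocked edgeR). The 3 not called, S100a8, S100a9 and Cd68, had log2 fold changes of −0.08, −0.80 and −0.43, and the median of the 4 was −0.26. S100a8 measured 0 and 40.2 FPKM in Gata3(g/g) and 0.660 and 33.3 FPKM in WT. B cell markers summed to 40.5 and 32.8 FPKM in Gata3(g/g) and 31.8 and 30.8 FPKM in WT, and stromal markers to 8.81 and 10.2 FPKM in Gata3(g/g) and 12.9 and 7.65 FPKM in WT. The 7 mast cell markers summed to 8.25 and 8.67 FPKM in Gata3(g/g) and 48.7 and 55.7 FPKM in WT. Of the 2 tested, 1 was called lower, Cpa3 (2.99% of all tested genes were called lower). Cpa3 measured 2.73 and 1.55 FPKM in Gata3(g/g) and 43.5 and 49.997 FPKM in WT (−4.44 ± 0.212, SE, adjusted p = 8.55e-10 by run-blocked edgeR). Kit was not called, with a log2 fold change of 0.198. The other 5 markers stayed below 1 FPKM in all 4 libraries, 1 of them at 0 throughout. The lower sum therefore rests on Cpa3 alone. The part of gamma-delta, innate lymphoid and myeloid cells in the CD8 difference was not tested.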

How the data were processed

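The authors processed the reads with TopHat2 2.0.8b, Bowtie2 2.1.0 and Cuffdiff 2.1.1 on mm10, per the submitters' processing notes; the annotation and the strand setting were not given in the sources used here. Per the file headers, the authors deposited an estimated count of fragments and an FPKM value per gene and library, and a comparison table with mean FPKM, log2 fold change, p-value and q-value per gene. Its positions are mm10, written here from 1.

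Of 23285 genes, 3 marked by Cuffdiff as too deep were left out. The estimated counts were rounded for testing; 97.7% to 98.9% of them per library were whole to within 0.01. Genes averaging 1 FPKM or more (10224) were tested with edgeR 4.0.16 (R 4.3.3): quasi-likelihood test, TMM scaling, two-sided, Benjamini-Hochberg adjustment over all tested genes at 0.05. The main model held genotype alone (2 residual degrees of freedom). The labels place equal replicate numbers in one sequencing run, which pairs the libraries, and run differences of the genotypes correlated at 0.754 (Pearson, across genes, which are not independent replicates), so values of the model with the run as a replicate block are printed throughout. DESeq2 1.42.0 and limma 3.58.1 (on log2(FPKM + 1), which understates changes of low genes) were alternatives. SE is the unshrunken log2 fold change over the root of F, while the fold changes given carry edgeR's shrinkage. Differences inside a run are log2 CPM with a prior count of 2. A floor of 3 fragments and the 95% exact binomial intervals of CPM ratios cover counting error only. The members and lists were chosen with earlier results of these data known, and context lists were named by the rule of up to 4 called genes each. Unpassed genes were added after their values were seen: Runx1, Runx3, Patz1, Lck, the aquaporins, and Xcr1, Clec9a, Bst2, S100a8, S100a9, Cd68 and Kit among the markers. Nkg7, which was called higher, and Cpa3, which was called lower, were also named after their values were seen.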

Additional observations from a re-analysis of the deposited data

How the results depend on the processing

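Without the replicate block, edgeR called 0 of the 6 tested members and 0 of all genes, and with it 4 and 705. With the block and scaling by total fragments alone the counts were 4 and 695, with the block and no filter 5 (of 9 members) and 988, and by DESeq2 with the block 3 and 417. All genes called numbered 58 with no filter, 88 by DESeq2, 5 by limma at a pseudocount of 1 and 5 at 0.1, and 18 by limma with the block, with 0 members in each. Leaving out 1 library each, without the block, gave from 1 to 11 calls over all genes and 0 members; with the block such fits have no residual degrees of freedom and were not run. Cd8a, Cd8b1, Themis and Aqp11 kept their direction under all alternatives run. Cd8b1 ranged from 1.05 to 2.71 and Cd8a from 0.63 to 1.43 on the log2 scale, the lowest Cd8a value being limma's on log2(FPKM + 1).

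Directions of the other members turned. Zbtb7b was −0.29 without the block and no filter, but 0.27 with the block (also a fit with no filter, since Zbtb7b lies below it), 0.32 with the block and total fragments and 0.35 by DESeq2 with the block. With 1 library left out, the log2 fold change ran from −1.15 to 2.09 for Zbtb7b, from −1.41 to 0.094 for Rora, from −0.27 to 0.087 for Cd4, from −0.20 to 0.30 for Arpp21 and from −2.57 to 1.64 for Cd69. Leaving out a library shares the runs unequally between the genotypes; the cause of these turns was not tested. Depth limits Zbtb7b and Rora, which had 3 to 23 fragments a library.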

Other observations

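Cd69 lies in the natural killer gene complex of chromosome 6, a cluster of C-type lectin genes. Values of 4 other lectin genes, Clec12a, Clec2d, Clec2i and Klrb1f, are given here, which are only a part of the cluster. The first 2 were called higher with the block (3.9% of all tested genes were), and the others were not called. Clec12a, which encodes an inhibitory lectin receptor and is the nearest expressed gene on one side of Cd69, 74874 bases away, measured 20.7 and 24.02 FPKM in Gata3(g/g) and 9.20 and 6.60 FPKM in WT. Its log2 fold change was 1.51 ± 0.163 (SE, adjusted p = 1.35e-05 by run-blocked edgeR). Clec2d, which encodes a ligand of NK receptors, measured 29.3 and 19.3 FPKM in Gata3(g/g) and 15.9 and 12.1 FPKM in WT. Clec2i measured 14.7 and 15.5 FPKM in Gata3(g/g) and 9.33 and 12.2 FPKM in WT and did not pass (adjusted p = 0.1002 by run-blocked edgeR). Klrb1f, at 1.38 and 1.16 FPKM in Gata3(g/g) and 0.640 and 0.501 FPKM in WT, fell below the filter and was not tested. On the other side of Cd69, 2310001H17Rik had 30.1 and 44.9 FPKM in Gata3(g/g) and 27.2 and 57.4 FPKM in WT. These genes were singled out after their values were seen.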
